A study of Homo sapiens with 6 samples.

Results

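Interleukin 1 (IL1) family genes were examined in U2OS cells in which the cholesterol synthesis enzyme squalene epoxidase (SQLE) had been silenced. The 10 genes were the ligands IL1A, IL1B, IL1RN, IL18 and IL33, the receptor chains IL1R1 and IL1RAP, and the signal adaptors MYD88, IRAK1 and TRAF6. They were matched by Ensembl identifier and symbol and made up 10 of the 19937 genes counted. The genes were chosen by family and not by a threshold, but IL1A had been picked out because its read counts were already known to be higher after silencing while most other cytokines were lower. The comparison between the 2 groups was therefore used in the choice, and the differences of the 10 genes are given below as a description, with no p-value. Their calls in the fit across all genes are counted beside the share of all genes called, and again under alternative settings. Nothing is drawn from them.

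U2OS is an established cell line of human osteosarcoma, a bone cancer. In the shSQLE group the cells carried a short hairpin RNA (shRNA) against SQLE, and in the shControl group they carried a scrambled hairpin. Both hairpins were delivered by lentivirus from the pGIPZ plasmid, and in both groups stably transduced cells were selected with puromycin at 2 μg/mL. Poly(A) RNA of 3 libraries per group was sequenced as pairs of 151 bp reads. The study tried several hairpins and kept one of them, and which one was used for sequencing is not stated in the text used here. The methods give technical replicates as the default within an experiment without a statement for these libraries, so that SDs and p-values measure the spread between these libraries, which may be technical.

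IL1 family ligands are inflammatory signals that act on receptors carrying a Toll/IL1 receptor domain. IL1α (encoded by IL1A) and IL1β (encoded by IL1B) both bind the receptor IL1R1, which then recruits the accessory chain IL1RAP. The paired receptors bind the adaptor MYD88, which assembles IRAK kinases, and these engage the ubiquitin ligase TRAF6, a step that leads to NF-κB and MAP kinase activation. IL1α is made as a precursor that is already active and can enter the nucleus. The IL1β precursor has to be cleaved before it signals, classically by caspase-1, the protease that inflammasomes activate. In connective tissue and bone cells the pathway is known for inducing cytokines, chemokines, prostaglandin synthesis enzymes and matrix metalloproteinases.

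The libraries held 12212378 to 14393292 counts. SQLE had 1349, 1867 and 1924 normalized counts in replicates 1, 2 and 3 of shControl against 229, 204 and 219 in those of shSQLE, where a normalized count is the count scaled to the mean effective library size. The shSQLE mean was 12.7% of the shControl mean (p = 0.1 in a two-sided exact permutation test, which cannot go lower with 3 libraries per group). One library stood apart. Relative to the other shControl libraries, shControl replicate 1 was at a median of 0.40 on the log2 scale in the lowest quartile of exonic length and at a median of -0.36 in the highest quartile. Some of the results that differ without it are therefore given both ways. Of 7 mesenchymal and osteoblast markers, vimentin (VIM), SPARC, RUNX2, TWIST1 and COL1A1 were detected well, while ALPL had at most 2 counts and COL1A2 at most 6 in any library. Of the 5 tested, 4 had lower values in shSQLE and 1 a higher value. COL1A1 was called lower (log2 fold change -0.65, edgeR adjusted p = 0.0452). Macrophages and keratinocytes are known sources of IL1. The 8 immune markers together had 31 to 33 counts per shControl library and 6 to 28 per shSQLE library, with PTPRC and CD3E listed at 0. CSF1R, the 1 immune marker tested, had 13, 14 and 10 counts in shControl and 13, 10 and 0 in shSQLE. Its log2 fold change was -0.70, not past the threshold, and CD68 had 3 to 11 counts per library. Of 7 epithelial markers, KRT14 was listed at 0 and KRT5, KRT19 and CDH1 had at most 3 counts in any library. The epithelial adhesion gene EPCAM had 46 to 55 counts in shControl and 57 to 76 in shSQLE, without overlap, and did not pass the threshold (log2 fold change 0.40, edgeR adjusted p = 0.362). The 5 endothelial markers summed to 12 to 19 and 4 to 12 counts. Keratins KRT8 and KRT18, which many cell lines express, were abundant in both groups. The part of these markers in the results was not tested.

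IL1A (ENSG00000115008) is at 112773925 to 112784493 on the minus strand of chromosome 2 (hg38) and codes for the ligand IL1α. Its normalized counts were 708, 819 and 850 in replicates 1, 2 and 3 of shControl and 2009, 1826 and 1828 in shSQLE replicates 1, 2 and 3. Every shSQLE library lay above every shControl library, and the gap between the groups was larger than the range within either of them. The means were 792 ± 74.6 and 1888 ± 105 (SD, n = 3 each), a 2.38-fold difference and a log2 fold change of 1.25 with a standard error of 0.12. The value ranged from 1.18 to 1.32 when each library was left out in turn, with the lowest value obtained without shControl replicate 1. In these bulk samples, more cells expressing IL1A and more IL1A RNA per cell cannot be told apart.

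IL1B (ENSG00000125538, chromosome 2, 112829751 to 112836816, minus strand), the gene of the second agonist of the same receptor, lies 45258 bases from IL1A. It had 826, 794 and 801 normalized counts in the shControl libraries and 898, 782 and 699.9 in the shSQLE libraries. The groups overlapped, with means of 807 ± 16.5 and 793 ± 99.5 (SD, n = 3 each) and a log2 fold change of -0.02 (standard error 0.12). Its values thus stayed near one level while those of IL1A, its neighbour on the same strand, lay in separate ranges.

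**Figure D1:**
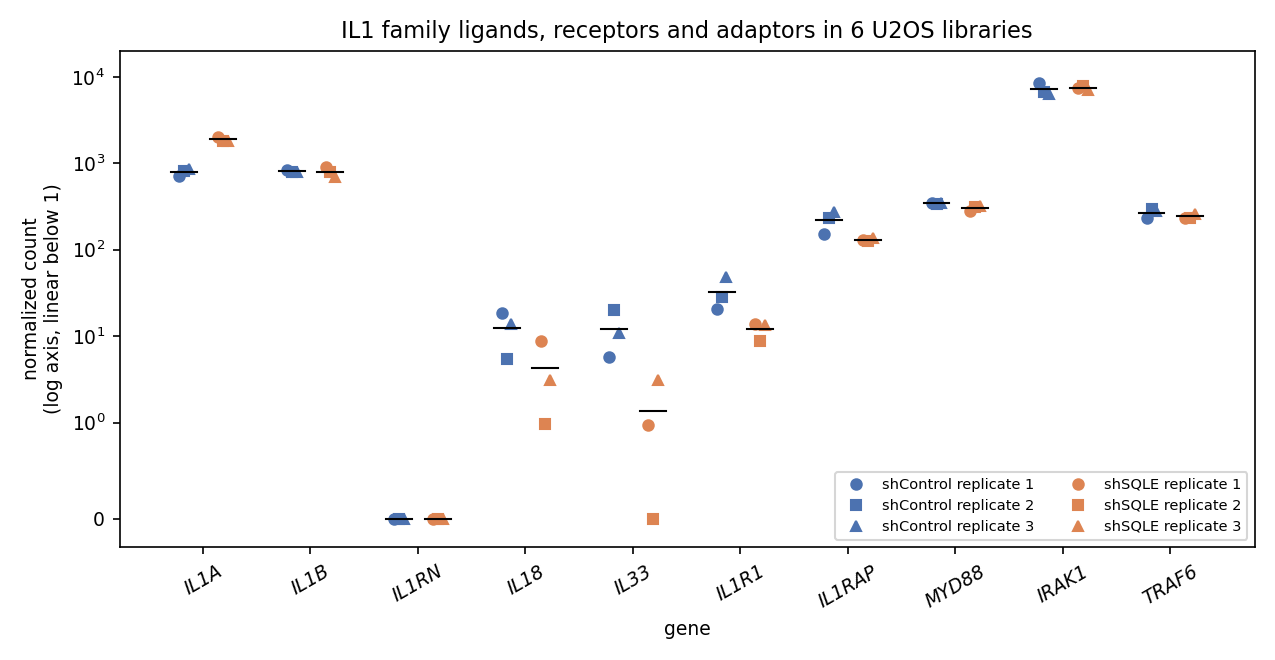
Normalized counts (y axis, logarithmic above 1 and linear below) of the 10 genes (x axis) in the 3 shControl and 3 shSQLE libraries; each point is a library and each black line the mean of a group. IL1A is the gene whose shSQLE points, from 1826 to 2009, lie far above its shControl points, from 708 to 850, while IL1B, IRAK1 and TRAF6 overlap between the groups and IL1RN is at 0.

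The balance of the agonists could be read within each library, where no scaling between libraries enters. IL1A took 46.2%, 50.8% and 51.5% of the reads of IL1A and IL1B together in replicates 1, 2 and 3 of shControl. In shSQLE replicates 1, 2 and 3 its share was 69.1%, 70.0% and 72.3%. The 95% Wilson intervals, which cover counting error only, reached up to 53.8% in shControl and down to 67.4% in shSQLE. On average the reads of IL1A per read of IL1B went from 0.983 ± 0.110 to 2.40 ± 0.194 (SD, n = 3 each), or from 1.47 ± 0.164 to 3.57 ± 0.290 when each gene was divided by its exonic length.

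**Figure D2:**
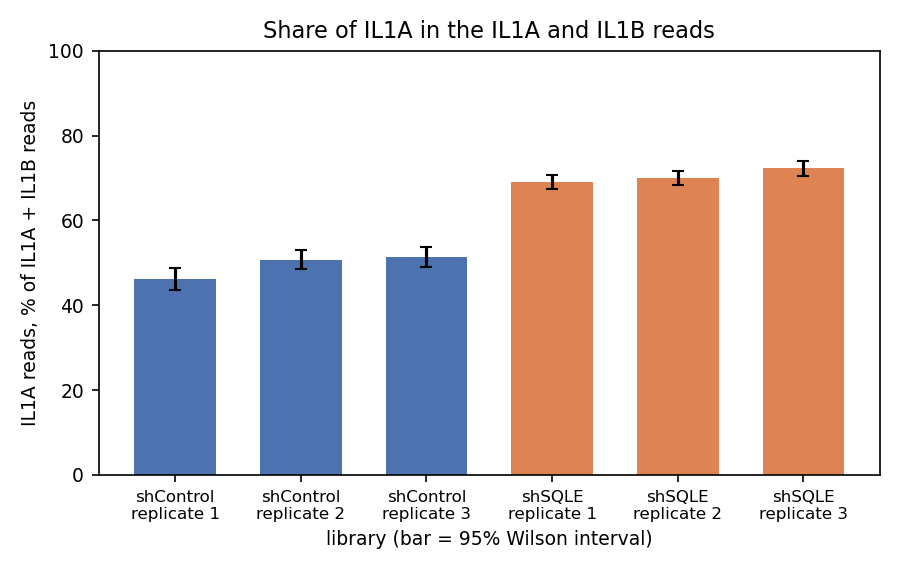
Percentage of IL1A reads among the reads of IL1A and IL1B (y axis) in each library (x axis), with 95% Wilson intervals for counting error. The shControl libraries lie between 46.2% and 51.5% and the shSQLE libraries between 69.1% and 72.3%.

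IL1RN, which codes for the receptor antagonist that competes with both agonists, had 0 counts in all 6 libraries. A count of 0 allows up to 3 counts per library, so the antagonist was not detectable at this depth in either group, and no fold is given. The other family ligands, both known as alarmins or inflammasome products, were near the limit of detection. IL18, whose product is cleaved by caspase-1 and acts on its own receptor, had 16, 6 and 14 counts in replicates 1, 2 and 3 of shControl and 9, 1 and 3 in shSQLE replicates 1, 2 and 3. The groups overlapped, and the summed counts of 36 and 13 gave a depth-corrected ratio of 0.359 (95% exact interval 0.175 to 0.693, counting error only). IL33, a nuclear alarmin released from damaged cells, had 5, 22 and 11 counts in the shControl libraries and 1, 0 and 3 in the shSQLE libraries. All shSQLE libraries were at or under 3 counts, and the ratio of the sums of 4 and 38 counts was 0.105 (0.0271 to 0.291). The shControl libraries alone differed by more than 4 counts to 1 in IL33, so these intervals understate the error. Neither IL18 nor IL33 passed the filter on low counts.

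The promoters of the family members differ in sequence, and a search for 4 short motifs on both strands was made in RefSeq promoter windows (GRCh38.p14, 250 bases before to 50 after a start). Entries were matched for 9 of the 10 genes in 16 windows, and IL18 was not matched. A gene counted when any of its windows matched. The 27305 genes with promoter windows had 35116 windows, fewer per gene than the 9 genes here, so the gene shares are not on a like basis. The AP-1 motif TGANTCA, bound by FOS and JUN proteins, was present for 3 of the 9 genes, IL1A, IL1RN and IRAK1. It was present for 9.37% of the 27305 genes and in 7.71% of their windows. The NF-κB consensus and the cAMP response element TGACGTCA were present for 0 of the 9 genes, and for 7.09% and 2.25% of all genes. The TATAAA motif was present for 3 of them, IL1A, IL1RN and IL1R1, and for 13.99% of all. Its match begins 239 bases before a start of IL1A. In IL1R1 its matches begin 229 and 124 bases before a start, on the opposite strand. In IL1RN they begin 32 and 30 bases before a start. IL1A has a pair of listed starts, and its 2 AP-1 matches begin 12 bases before and 39 after the first start, or 105 and 55 bases before the second. The AP-1 match of IL1RN begins 223 bases before 1 of its 3 starts. The upstream AP-1 match of IL1A and that of IL1RN are printed 5′ to 3′ on the gene's strand with the match in capitals. Those genes were chosen because IL1A was the highest of the family in difference and IL1RN had no counts. A match is a description of the sequence only.
IL1A, chr2:112784494-112784523, minus strand: acaaaaggcgaagaagacTGACTCAggctt
IL1RN, chr2:113117737-113117766, plus strand: ttctgctagccTGAGTCAccctcctggaaa

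Both chains of the IL1 receptor had lower values in shSQLE. IL1R1 (ENSG00000115594, chromosome 2, 102064544 to 102179874), the ligand-binding chain, had 20.8, 28.0 and 48.1 normalized counts in replicates 1, 2 and 3 of shControl and 13.7, 8.87 and 13.4 in the shSQLE replicates. The groups did not overlap, but the shControl libraries differed by more than 2 to 1, and raw counts in shSQLE were only 9 to 14. The log2 fold change was -1.43 with a standard error of 0.39, moving to -1.65 when shControl replicate 1 was left out and to -1.02 when shControl replicate 3 was.

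IL1RAP (ENSG00000196083, chromosome 3, 190514051 to 190659750), the accessory chain that IL1, IL33 and IL36 receptors share, had 152, 232 and 274 normalized counts in replicates 1, 2 and 3 of shControl. In shSQLE replicates 1, 2 and 3 it had 129, 126 and 138, below every shControl library. The means were 219 ± 61.6 and 131 ± 5.99 (SD, n = 3 each), and the log2 fold change was -0.75 with a standard error of 0.22. Most of the spread came from shControl replicate 1, which lay close to the shSQLE values, and without it the log2 fold change was -0.94. IL1RAP has 11210 exonic bases, and the part of the length trend of that library in this value was not tested.

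The intracellular adaptors differed little. MYD88, the adaptor that binds the receptor complex, had 351, 342 and 350.2 normalized counts in the shControl libraries and 279, 312 and 320 in the shSQLE libraries. The groups did not overlap, with a gap about as wide as the SD of 21.6 within shSQLE, and the log2 fold change was -0.19 (standard error 0.12). IRAK1, the kinase recruited by MYD88, was the most abundant of the 10 genes, with 8560, 6583 and 6244 normalized counts in shControl and 7508, 7919 and 7097 in shSQLE. Its groups overlapped, and its log2 fold change of 0.07 (standard error 0.14) was 0.23 without shControl replicate 1. TRAF6, the ubiquitin ligase that passes the signal on, had 231, 294 and 282 normalized counts in shControl and 235, 236 and 258 in shSQLE, with overlapping groups and a log2 fold change of -0.15 (standard error 0.14).

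Across genes, levels were compared per exonic length, as TPM, the reads per exonic base scaled to a common total in each library. In shControl the order was IRAK1 at 411 ± 20.1, IL1A at 98.6 ± 20.2, IL1B at 66.7 ± 6.68, MYD88 at 20.7 ± 2.33, TRAF6 at 8.32 ± 1.88 and IL1RAP at 4.98 ± 1.87 TPM (SD, n = 3 each). IL18, IL1R1 and IL33 followed at 1.17 ± 0.546, 1.16 ± 0.612 and 0.958 ± 0.605 TPM and did not differ from one another beyond their spread. TRAF6 and IL1RAP differed by less than the sum of their SDs. In shSQLE the order of the first 6 genes was the same. There IL1A stood at 227 ± 16.2 TPM against 63.6 ± 5.72 for IL1B, and IL1R1 and IL18 at 0.410 ± 0.109 and 0.398 ± 0.362 TPM. The ligand genes IL1A and IL1B thus had far more transcripts than the receptor gene IL1R1 in both groups, while IL1R1 was the scarcer chain of the receptor pair.

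In the fit across the 12450 genes that passed the filter on low counts, 7 of the 10 genes were tested, and IL1RN, IL18 and IL33 were not. IL1A was the 1 gene of the 7 past an adjusted p of 0.05 (quasi-likelihood test of edgeR, p adjusted over all genes by the Benjamini-Hochberg method), where 3.21% of all genes tested were called. In 4 of the 7 genes, IL1A, IL1R1, IL1RAP and MYD88, the groups did not overlap, as in 22.1% of all genes tested. Since this contrast was known when the genes were chosen, nothing is read from these counts. The median log2 fold change of the 7 genes was -0.15, and that of all genes tested was -0.01. With DESeq2, 3 of the genes were called, with IL1R1 and IL1RAP besides IL1A, where 5.86% of all genes were called. Without shControl replicate 1, 5 were called, IL1A, IL1R1, IL1RAP, IRAK1 and IL33, of which IL33 then passed the filter. That fit called 4264 genes in all, 33.9% of those tested, against 400 with all libraries.

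**Figure D3:**
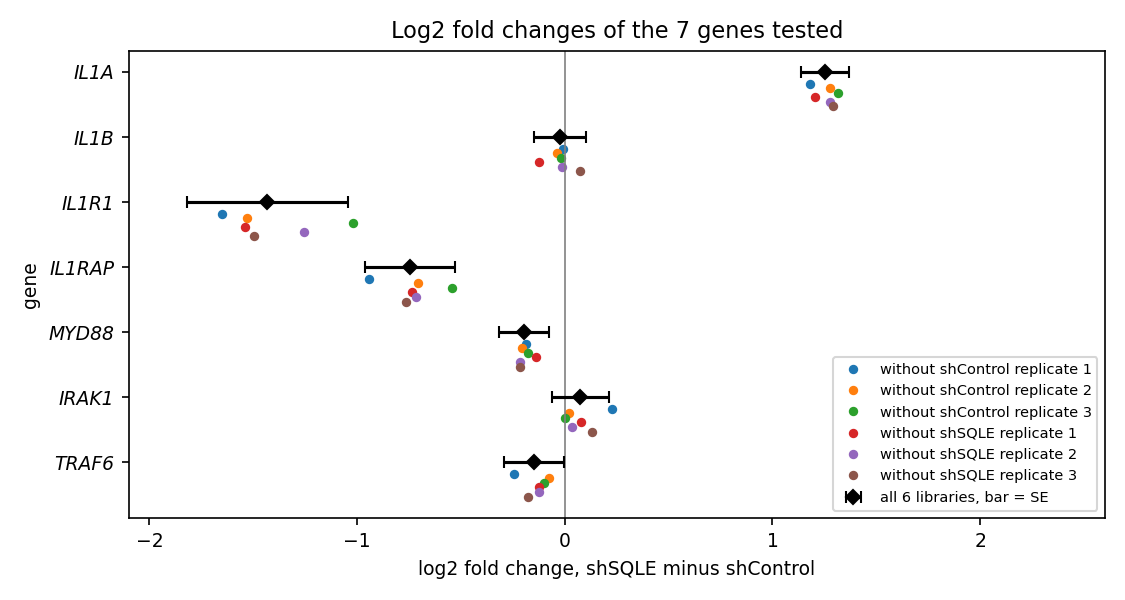
Log2 fold change of shSQLE minus shControl (x axis) for the 7 genes tested (y axis); diamonds with bars are the estimate and its standard error with all 6 libraries, and coloured points are the estimates with 1 library left out. IL1A stays between 1.18 and 1.32, while IL1RAP ranges from -0.94 to -0.54 and IL1R1 from -1.65 to -1.02.

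Other genes of the IL1 pathway were called about as often as all genes tested. A list of 57 such genes held other family ligands, other receptors, further signalling genes, and genes for processing and release. Of these, 40 were tested, 1 was called lower and 0 higher (edgeR), where 2.84% and 0.369% of all genes tested were called in these directions, and 6 were at an unadjusted p under 0.05. Their median log2 fold change was -0.08. With DESeq2, 3 were called lower and 0 higher, where that fit called 4.56% and 1.3% of all genes in these directions. The gene called was IRAK2, a kinase that acts with IRAK1 and is also induced by IL1, which fell from 359.8 ± 38.6 to 225 ± 15.6 normalized counts (mean ± SD of 3 libraries). Its log2 fold change was -0.68 with a standard error of 0.14 (edgeR adjusted p = 0.0420). IRAK2 was lower in every shSQLE library than in any shControl library, but lost its call without any 1 library other than shControl replicate 1, and its edgeR adjusted p then reached 0.247. Without shControl replicate 1, 9 genes of the 57 were called lower, among them the IRAK family genes IRAK3 and IRAK4 and the IL18 receptor gene IL18R1, and 3 were called higher, ECSIT, HAX1 and UBE2N. That fit called 18.3% of all its genes lower and 15.6% higher.

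Among the other family ligands, IL37, which codes for an inhibitory cytokine, was the 1 gene of 6 tested, at 16.1 ± 6.64 normalized counts in shControl and 19.0 ± 4.61 in shSQLE (SD, n = 3 each), and 4 of the 6 were listed at 0. Among 9 other receptor genes, 4 were tested. IL18R1 had 31.2, 38.9 and 52.0 normalized counts in shControl and 16.6, 19.7 and 17.5 in shSQLE, without overlap, and did not pass the threshold (log2 fold change -1.18, edgeR adjusted p = 0.0643). It shares exonic bases with IL1RL1 on the same strand. SIGIRR, a receptor that dampens IL1 signals, was at a log2 fold change of -0.28 (standard error 0.32), and IL18BP, which codes for a secreted binder of IL18, at 0.24 (standard error 0.23). NUMA1 overlaps 17.6% of the exonic bases of IL18BP on the opposite strand, and the strand setting of the counts is not given.

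All 24 further signalling genes were tested, from the IRAK kinases to the TAK1 and IKK complexes. The most abundant per length were the scaffold SQSTM1, the ubiquitin-conjugating enzyme UBE2N and SHARPIN, a subunit of the linear ubiquitin ligase. Their log2 fold changes were -0.42 (standard error 0.14), 0.27 (0.10) and -0.05 (0.21), none of them past the threshold with all 6 libraries. Without shControl replicate 1, SQSTM1 was called lower at -0.28 and UBE2N higher at 0.30. That fit called 18.3% of all its genes lower and 15.6% higher. On the opposite strand, NUDT4 overlaps 41.5% of the exonic bases of UBE2N and MRNIP 21.0% of those of SQSTM1, and without a stated strand setting their reads cannot be told apart. Of 18 genes for processing and release, 11 were tested and 0 were called (edgeR), with 1 at an unadjusted p under 0.05. The calpain genes CAPN2 and CAPNS1, whose protease cleaves the IL1α precursor, had log2 fold changes of 0.11 (standard error 0.11) and -0.09 (0.23), and HAX1, whose product binds that precursor, 0.33 (0.18). CASP1, which codes for the protease that cleaves the IL1β and IL18 precursors, had at most 2 counts in any library.

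IL1 response genes, a list of genes that IL1 is known to induce in connective tissue cells, were mostly lower in shSQLE, where IL1A was higher. Of 39 listed genes 29 were tested, 10 were called lower and 1 higher, against 2.84% and 0.369% of all genes tested. The median log2 fold change was -0.53, and the groups did not overlap in 21 of the 29 genes, 17 of them lower in shSQLE, where 22.1% of all genes tested did not overlap in either direction. Many of these genes also respond to other signals through NF-κB and AP-1, so the list is not specific to IL1. It was written with earlier results on IL6 and other cytokines known, and its direction is not independent evidence.

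IL6, an inflammatory cytokine, had 144, 175 and 153 normalized counts in replicates 1, 2 and 3 of shControl and 11.8, 13.8 and 11.3 in the shSQLE replicates. PTGS2, the inducible enzyme of prostaglandin synthesis, had 1179, 1811 and 1845 in shControl and 228, 173 and 208 in shSQLE. Their log2 fold changes were -3.67 and -2.99 (standard errors 0.20 and 0.21), and both were called lower (edgeR). The difference of IL6 was known when the list was written, so these calls are given as a description only. PTGES, the prostaglandin E synthase that works with PTGS2, fell from 218 ± 36.3 to 68.0 ± 6.92 (mean ± SD of 3 libraries), a log2 fold change of -1.68. The collagenase gene MMP1 was among the most abundant genes of the list and fell from 28268 ± 1006 to 12228 ± 446 (log2 fold change -1.21). A further collagenase gene, MMP13, was at -2.59 with 6 or 7 counts in each shSQLE library.

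The feedback inhibitors TNFAIP3 and NFKBIZ, the latter a nuclear IκB protein that also helps to induce IL6, had log2 fold changes of -1.43 and -1.42. CSF2, a colony-stimulating factor, TNFAIP2 and IRAK2 were at -1.23, -0.70 and -0.68, all called lower. PTX3, which codes for a secreted pentraxin of innate immunity, was the 1 gene called higher. It had 756, 872 and 908 normalized counts in shControl and 1914, 1875 and 1733 in shSQLE (log2 fold change 1.12 with a standard error of 0.12, edgeR adjusted p = 0.00260), and 3.77% of its exonic bases overlap VEPH1 on the opposite strand.

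The neutrophil-attracting chemokine genes of the list did not share the lower values. CXCL8 had 1312, 2190 and 2219 normalized counts in shControl and 2324, 2228 and 2229 in shSQLE, and its log2 fold change was 0.24 (standard error 0.19), of which 0.04 was left without shControl replicate 1. CXCL1 and CXCL3, named here after their values were seen, were at 0.44 and 0.60 and not past the threshold (edgeR). With DESeq2, CXCL3 was called higher at 0.61, where 1.3% of all genes were called higher. Both were called higher without shControl replicate 1, at 0.59 and 0.57. IER3 and TNIP1, the other abundant genes not called, were at 0.06 and -0.37. Without shControl replicate 1, IER3 was called higher at 0.29, in a fit that called 15.6% of all its genes higher. SOD2 was not analysed here.

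**Figure D4:**
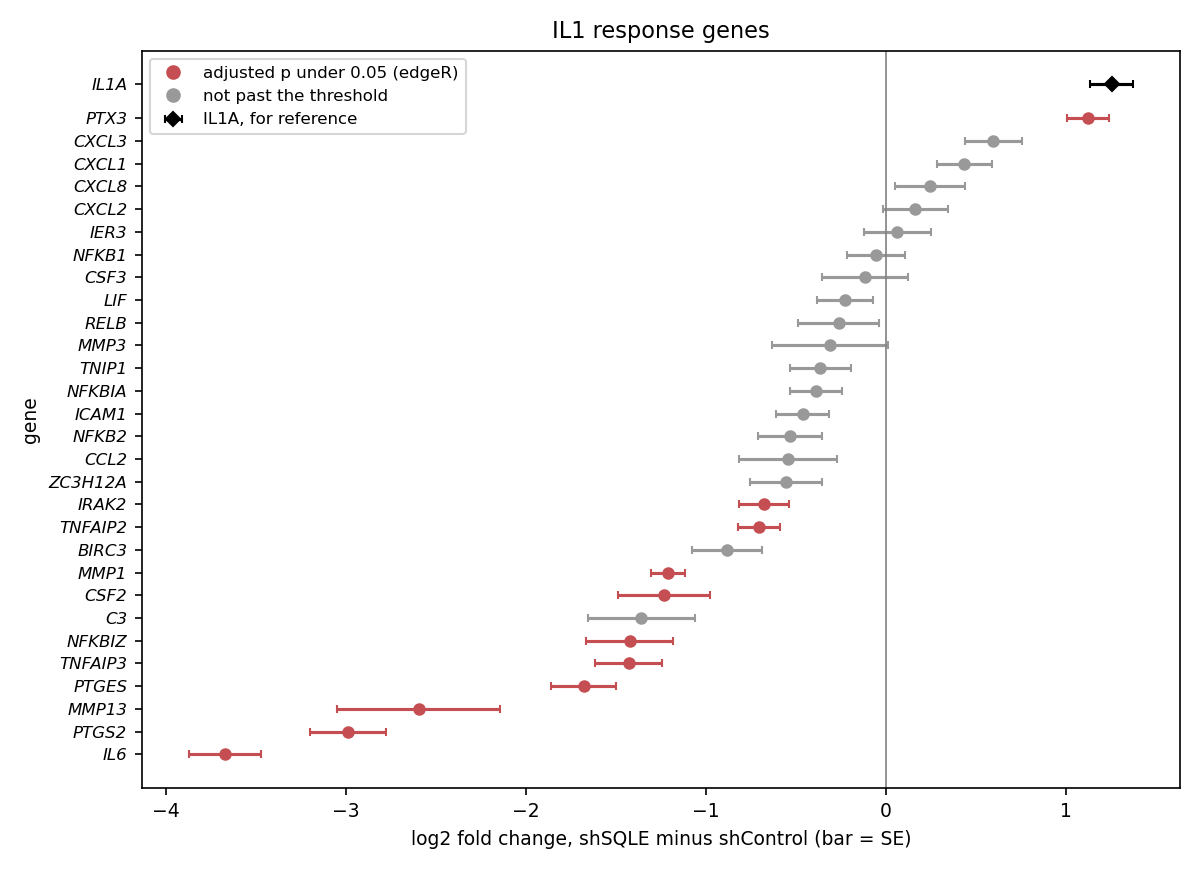
Log2 fold change of shSQLE minus shControl with its standard error (x axis) for the 29 IL1 response genes tested (y axis), with red for an adjusted p under 0.05 and grey for the others, and IL1A as a black diamond. IL6 at -3.67 and PTGS2 at -2.99 lie lowest, and PTX3 at 1.12 is the gene of the list closest to IL1A at 1.25.

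As over all genes, the number of response genes called changed when 1 library was left out. It was 5 lower without shControl replicate 2, shControl replicate 3, shSQLE replicate 1 or shSQLE replicate 3, 4 lower without shSQLE replicate 2, and 14 lower and 4 higher without shControl replicate 1. The first 5 of these fits called 0.801% to 1.58% of all their genes lower, and the fit without shControl replicate 1 called 18.3% lower and 15.6% higher. IL6, PTGS2, PTGES, MMP1 and PTX3 kept their calls in all 6 of these fits.

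Among 109 other cytokine and chemokine genes, 45 were listed at 0 and 30 were tested. Of these, 18 had a lower value in shSQLE, 8 were called lower and 0 higher (edgeR; 14 genes at an unadjusted p under 0.05), with a median log2 fold change of -0.43. Of all genes tested, 51.6% had a lower value, 2.84% were called lower and 0.369% higher. This pattern was part of how IL1A was picked out, and it is given as a description only. The list is not separate from that of the IL1 response genes. Both hold CXCL8, CSF2 and further genes, and IL6 and CSF2 count among the genes called lower in each. Beside IL6, the lowest were the chemokines CCL5 and CXCL10, at -3.36 and -3.07, and the called genes nearest to 0 were IL11 at -0.57 and CSF2 at -1.23, followed by the chemokine CXCL11 at -2.35. IL11 and CSF2 lost their calls without any 1 library other than shControl replicate 1, and IL11 also without the filter on low counts (edgeR adjusted p = 0.0531).

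The genes whose pattern over the 6 libraries was most like that of IL1A were found from the root-mean-square difference of mean-centred log2 CPM (counts scaled to library size). They were PTX3 at 0.0750, WARS2, a mitochondrial tryptophanyl-tRNA synthetase gene, at 0.168, TNS1, which codes for a focal adhesion protein, at 0.173, VIPR1, a neuropeptide receptor gene, at 0.178 and RASL10B at 0.186. RASL10B rested on 7 to 23 counts per library. The other 6 IL1 family genes tested had differences from 0.627 for IRAK1 to 1.28 for IL1R1. The measure keeps the size of the group difference, for which IL1A was picked. Genes with similar values in both groups, such as IRAK1, therefore lie far from IL1A by construction, and nothing is read from these distances. The likeness is a description of these 6 libraries, which share their 2 groups.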

How the data were processed

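Raw counts per gene, without normalization, were deposited by the authors, whose processing notes name fastp 0.20.0, STAR 2.7.9a on hg38, and featureCounts 2.0. The annotation release, strand setting and treatment of multi-mapping reads are not given in the sources used here. Of 19937 identifiers, 19905 matched a symbol, and exonic lengths and coordinates came from GENCODE v44. Counts were tested with edgeR 4.0.16 in R 4.3.3 (filterByExpr, TMM, quasi-likelihood test, Benjamini-Hochberg adjustment over 12450 genes, threshold 0.05). The standard error is the size of the log2 fold change divided by the square root of F. TPM were computed from exonic lengths. The fit was first tested on simulated data. DESeq2 1.42.0, other size factors, other filters, a replicate block and leaving out each library served as alternatives. Named were SQLE, the 10 genes, called genes of the lists and the 3 most abundant others of each, the outermost 3 called cytokines at each end, and the 5 genes most like IL1A. The genes and lists were chosen with earlier results of these data known.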

Additional observations from a re-analysis of the deposited data

How the results depend on the processing

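The log2 fold change of SQLE ranged from -3.12 to -2.87 and that of IL1A from 1.18 to 1.32 over the alternatives; IL1A was chosen for its difference in these libraries, so its range is no independent support. With DESeq2, 730 genes were called in place of 400, with 3 of the 10 IL1 genes, 2 response genes higher and 3 other pathway genes lower. Of all genes, DESeq2 called 4.56% lower and 1.3% higher. With library size only, the median of the 7 genes tested was -0.19 and 0 other pathway genes were called lower; with at least 10 counts in every library that median was -0.091, and IL1R1 was not tested. Leaving out 1 library gave 109 to 4264 genes called, 1 to 5 of the IL1 genes, medians of -0.19 to -0.078, 4 to 14 response genes lower and 1 to 4 higher, and 0 to 9 other pathway genes lower and 0 to 3 higher. Each upper count came without shControl replicate 1, the library with the length trend, and the cause was not tested. The fit without it called 33.9% of all genes, and the other fits with 1 library left out called 0.864% to 1.68%. Log2 fold changes near 0 changed sign in some of these fits: IL1B ranged from -0.12 to 0.074, IRAK1 from -0.0012 to 0.23, CAPNS1 from -0.26 to 0.21, IER3 from -0.045 to 0.29, SHARPIN from -0.21 to 0.21 and SIGIRR from -0.46 to 0.12.

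Whether replicate numbers pair the libraries could not be decided. The deviations of same-numbered libraries from their group means correlated at 0.138, -0.433 and 0.543. Those of different-numbered libraries correlated at -0.595 to 0.542. With 3 libraries per group the deviations depend on one another, so no conclusion is drawn. With the replicate number as a block, 396 genes were called, 0 other pathway genes were called lower, and the log2 fold change of IL1A was 1.25. With the block IL11 was not called (edgeR adjusted p = 0.0997). For genes at or under 3 counts, such as IL33 in shSQLE, depth leaves a wide interval.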

Other observations

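IL1A lies in the IL1 gene cluster of chromosome 2, and the genes within 500 kb of it were counted in the same libraries. Of 18 such genes, 5 were listed at 0 (IL36A, IL36B, IL36RN, IL1F10 and IL1RN), 10 were tested, and 0 were called (edgeR), with the smallest unadjusted p at 0.0900. The nearest neighbour was the mitotic gene CKAP2L. It had a log2 fold change of 0.35 (unadjusted p = 0.0922), and CKAP2L had 671 counts in shControl replicate 1 against 1250 to 1468 in the other libraries. The phosphate transporter gene SLC20A1, the most abundant gene of the region, was at 0.03.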
